A study of Mus musculus with 165 samples.

Results

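The genes described here are 10 mouse genes known as targets or partners of the transcription factor NRF2: Nqo1, Hmox1, Srxn1, Txnrd1, Gclc, Gclm, Slc7a11, Prdx1, Gsr and Keap1. They were chosen by symbol, through the Ensembl identifier of each row of the count tables, and all 10 were found among 55471 rows and passed the filter on low counts in both tissues. The libraries were polyA-selected, stranded RNA sequencing libraries of the brain and the liver of male C57BL/6J/Ukj mice, an inbred laboratory strain, with no treatment or transgene named in the labels. The brain libraries numbered 15, 16, 16, 17 and 18 at 3, 9, 15, 24 and 28 months of age, and the liver libraries 16, 16, 16, 17 and 18. The labels number the mice within an age, and a shared age and number marks 1 animal, so that 82 of 83 mice had both tissues. For mouse 6 of 3 months the liver alone was analysed here. The labels divide the libraries into 3 batches, called preps here, each holding 4 to 7 libraries of every age in each tissue.

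NRF2, encoded by Nfe2l2, is a transcription factor that is made continuously and degraded just as continuously. Its partner KEAP1 holds it for a CUL3 ubiquitin ligase, and when electrophiles or oxidants modify cysteines of KEAP1 that hold is lost, NRF2 enters the nucleus, pairs with a small MAF protein and binds antioxidant response elements near its target genes. The targets renew glutathione (Slc7a11, Gclc, Gclm, Gsr), renew thioredoxin and the peroxiredoxins (Txnrd1, Prdx1, Srxn1), reduce quinones (Nqo1) and break down heme (Hmox1). In the liver this system is known above all for the detoxification of drugs and lipid peroxides in hepatocytes, and in the brain for its activity in astrocytes, which supply neurons with glutathione precursors.

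The promoters are shown because the same kind of site, the antioxidant response element, is the link that names these genes as a set. RefSeq sequences of GRCm38.p6, from 250 bases before to 50 bases after each start, were matched by symbol for 7 of the 10 genes, as 9 windows. Hmox1, Gclc and Gsr had no entry. The core of the element, TGACNNNGC, and the related TGAGNNNGC were searched on both strands, and the capitals below mark the matches on either strand. At least 1 match was present in 5 of the 9 windows, of 5 genes. TGACNNNGC was present in 12.4% of all 32851 promoter windows of the same length, TGAGNNNGC in 17.6%, and either in 27.8%. In Srxn1 the windows held 3 matches, in Prdx1 2, and in Gclm, Slc7a11 and Txnrd1 1. The windows of Nqo1 and Keap1 held neither string of letters, and for Txnrd1 only 1 of its 3 windows, the one shown, held a match. Each sequence is written 5′ to 3′ on the gene's own strand.
Srxn1, chr2:152105274-152105573, plus strand: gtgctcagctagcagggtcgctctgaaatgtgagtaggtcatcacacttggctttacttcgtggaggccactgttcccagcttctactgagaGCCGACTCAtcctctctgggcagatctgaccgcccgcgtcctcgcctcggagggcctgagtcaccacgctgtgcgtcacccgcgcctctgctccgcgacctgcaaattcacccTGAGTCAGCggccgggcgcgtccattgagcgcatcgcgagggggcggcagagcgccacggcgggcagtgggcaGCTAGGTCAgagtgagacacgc
Prdx1, chr4:116685349-116685648, plus strand: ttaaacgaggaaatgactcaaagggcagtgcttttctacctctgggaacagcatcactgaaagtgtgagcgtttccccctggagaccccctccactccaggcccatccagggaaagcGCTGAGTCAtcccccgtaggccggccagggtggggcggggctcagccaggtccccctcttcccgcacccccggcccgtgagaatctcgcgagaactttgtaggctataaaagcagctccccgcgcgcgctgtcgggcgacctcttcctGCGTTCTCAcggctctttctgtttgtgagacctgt
Txnrd1, chr10:82858956-82859255, plus strand: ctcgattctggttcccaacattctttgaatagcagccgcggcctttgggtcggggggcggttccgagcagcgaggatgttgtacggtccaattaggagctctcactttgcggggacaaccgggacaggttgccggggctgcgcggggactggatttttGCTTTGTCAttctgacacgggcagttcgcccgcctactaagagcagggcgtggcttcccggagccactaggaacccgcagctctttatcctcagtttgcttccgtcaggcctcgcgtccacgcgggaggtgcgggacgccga
Gclm, chr3:122245307-122245606, plus strand: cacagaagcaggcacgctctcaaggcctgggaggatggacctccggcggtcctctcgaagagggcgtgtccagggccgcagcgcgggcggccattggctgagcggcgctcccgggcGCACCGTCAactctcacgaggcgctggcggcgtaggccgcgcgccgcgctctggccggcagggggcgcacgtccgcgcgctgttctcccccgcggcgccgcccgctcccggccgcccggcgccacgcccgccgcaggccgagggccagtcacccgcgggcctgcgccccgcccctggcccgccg
Slc7a11, chr3:50443564-50443863, minus strand: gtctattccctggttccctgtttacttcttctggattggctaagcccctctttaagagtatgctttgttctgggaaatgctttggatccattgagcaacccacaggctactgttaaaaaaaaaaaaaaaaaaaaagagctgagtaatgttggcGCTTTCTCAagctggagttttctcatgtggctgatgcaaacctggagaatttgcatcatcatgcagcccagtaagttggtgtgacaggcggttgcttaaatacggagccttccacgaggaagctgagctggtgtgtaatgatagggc
Nqo1, chr8:107403156-107403455, minus strand, no match: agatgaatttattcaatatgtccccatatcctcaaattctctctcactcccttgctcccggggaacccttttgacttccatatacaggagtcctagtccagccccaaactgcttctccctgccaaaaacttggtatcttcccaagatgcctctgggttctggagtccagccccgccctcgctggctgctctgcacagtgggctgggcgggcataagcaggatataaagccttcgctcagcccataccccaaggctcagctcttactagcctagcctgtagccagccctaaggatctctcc
The Srxn1 matches were TGAGNNNGC at -158 to -150 and at -45 to -37 and TGACNNNGC at 29 to 37, counted from the start. The TGACNNNGC matches of Gclm (-134 to -126), Prdx1 (-133 to -125) and Txnrd1 (-92 to -84) lay upstream of the start, as did the TGAGNNNGC match of Slc7a11 (-97 to -89). The other Prdx1 match, TGAGNNNGC at 16 to 24, lay downstream of it.

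In the GENCODE gene models of GRCm38 the genes are spread over 6 chromosomes. Nqo1 (ENSMUSG00000003849) lies at chr8:107388225-107403206 on the minus strand, Hmox1 (ENSMUSG00000005413) at chr8:75093621-75100589 on the plus strand and Gsr (ENSMUSG00000031584) at chr8:33652523-33698163 on the plus strand. Gclc (ENSMUSG00000032350) lies at chr9:77754535-77794485 on the plus strand and Keap1 (ENSMUSG00000003308) at chr9:21229730-21239361 on the minus strand. Gclm (ENSMUSG00000028124) lies at chr3:122245557-122270732 on the plus strand and Slc7a11 (ENSMUSG00000027737) at chr3:49892526-50443614 on the minus strand. Srxn1 (ENSMUSG00000032802) lies at chr2:152105516-152111376, Txnrd1 (ENSMUSG00000020250) at chr10:82833951-82897712 and Prdx1 (ENSMUSG00000028691) at chr4:116685544-116700822, all on the plus strand. Values are read counts over the exons of a gene. Over 540 exon bases Gclm overlaps 2 other annotated genes, Gm17494 on the opposite strand and the pseudogene Gm6061 on the same strand, and over 510 bases Keap1 overlaps the antisense gene Gm16754. The strand setting of the counting is not given in the sources used here, so the counts of Gclm and Keap1 are uncertain by whatever part came from these partners.

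In units of 1000000 counts, the brain libraries held 11.5 to 73.4 (median 37.6) and the liver libraries 5.82 to 57.5 (median 32.9). Levels below are CPM, the counts of a gene per 1000000 counts of its library, after scaling by edgeR's TMM factors. The tissue labels were checked with Alb, the albumin gene of hepatocytes, which was at most 18.5 CPM in every brain library and 14000 to 101000 CPM in the livers, and with Snap25, a synaptic gene of neurons, at 966 to 2770 CPM in the brains and at most 40.4 CPM in the livers. That 40.4 CPM was in the liver library of 28 months replicate 14, which also had the lowest sum of 5 hepatocyte markers, 21800 CPM against 53700 to 125000 CPM in the other livers. In the brain 2 libraries stood apart, 28 months replicate 15 (median Spearman correlation with the other brain libraries 0.866) and 24 months replicate 13 (0.953), and in the liver the lowest values were 0.919 (24 months replicate 13) and 0.930 (28 months replicate 9). Values at 28 months are given with and without the 2 libraries of the tissue. Replicate numbers are the labels' mouse numbers.

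In 3-month livers, per kilobase of exon, Prdx1, a thiol peroxidase, was the most abundant of the 10, with a median of 285 CPM per kb (range 233 to 311). Gclc, the catalytic subunit of the enzyme that makes the glutathione precursor, followed at 101 (73.4 to 155), and its modifier subunit Gclm at 35.2 (30.1 to 42.1). The ranges of Prdx1, Gclc and Gclm did not overlap each other. Below them came Gsr (26.8), Srxn1 (21.5), Txnrd1 (21.2), Hmox1 (16.2) and Keap1 (13.7), whose ranges overlapped from each to the next, so that no order among these neighbours stood clear of the spread. Nqo1 was at 4.82 CPM per kb (2.37 to 6.91). Slc7a11, which imports cystine, was at 0.00280 (0 to 0.0452), at or under 3 counts in 15 of 16 libraries, with a limit of 3 counts equal to 0.0554 to 0.527 CPM over the liver libraries.

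In 3-month brains the order per kilobase was another. Srxn1, the reductase of over-oxidized peroxiredoxins (median 31.1 CPM per kb, range 27.4 to 33.4), and Prdx1 (29.5, 26.8 to 35.0) were highest and overlapped. Keap1 (15.9) overlapped Gclc (14.7), and Gclm (8.82), Txnrd1 (8.02) and Gsr (7.59) overlapped each other in turn. Slc7a11 was at 4.17 (3.35 to 6.76), Nqo1 at 2.50 (1.95 to 5.50) and Hmox1 at 2.40 (2.23 to 3.57), again each overlapping its neighbour.

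Tested between the tissues at 3 months, 9 of the 10 genes differed, where 90.1% of all 14035 genes tested in both tissues did. Slc7a11 was higher in the brain, by 9.11 ± 0.30 on the log2 scale (estimate ± SE, edgeR adjusted p = 9.0e-66). With a median of 58.1 CPM in 3-month brains (46.6 to 94.2) against 0.0390 CPM in 3-month livers (0 to 0.630), no brain library overlapped any liver library, and since nearly all of those livers were at or under 3 counts the fold itself depends on the prior count. The other 8 were lower in the brain: Prdx1 by a log2 difference of -3.83 ± 0.07, Gclc -3.44 ± 0.14, Hmox1 -3.32 ± 0.18, Gclm -2.60 ± 0.08, Gsr -2.41 ± 0.05, Txnrd1 -1.99 ± 0.06, Nqo1 -1.39 ± 0.12 and Keap1 -0.39 ± 0.04. Srxn1 did not pass the test (-0.11 ± 0.10, edgeR adjusted p = 0.299). Levels set across tissues depend on the scaling of very different RNA pools, and Srxn1 differed when median-ratio size factors were used.

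With age the liver divided the set. From 3 to 28 months Nqo1, Hmox1 and Slc7a11 rose, and Gclc, Prdx1, Gsr, Gclm, Txnrd1 and Keap1 fell, while Srxn1 did not pass the test. That made 9 of 10 genes called at an adjusted p under 0.05 (edgeR's quasi-likelihood test with Benjamini-Hochberg adjustment over all genes), against 61.9% of all 15579 genes tested, with 3 of 10 higher against a background of 31.9% and 6 of 10 lower against 30.0%. One of the 3, Slc7a11, passed the filter on low counts only through the older livers where it was higher. Whether it was tested here and in the comparisons of 24 months depended on those livers, and it is no support for these counts. The median log2 change of the 10 was -0.20, beside 0.01 over all genes. In no gene did the ranges of 3 and 28 months fall entirely apart, as they did in 1.35% of all genes. All comparisons with 3 months share the same 3-month libraries.

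**Figure D1:**
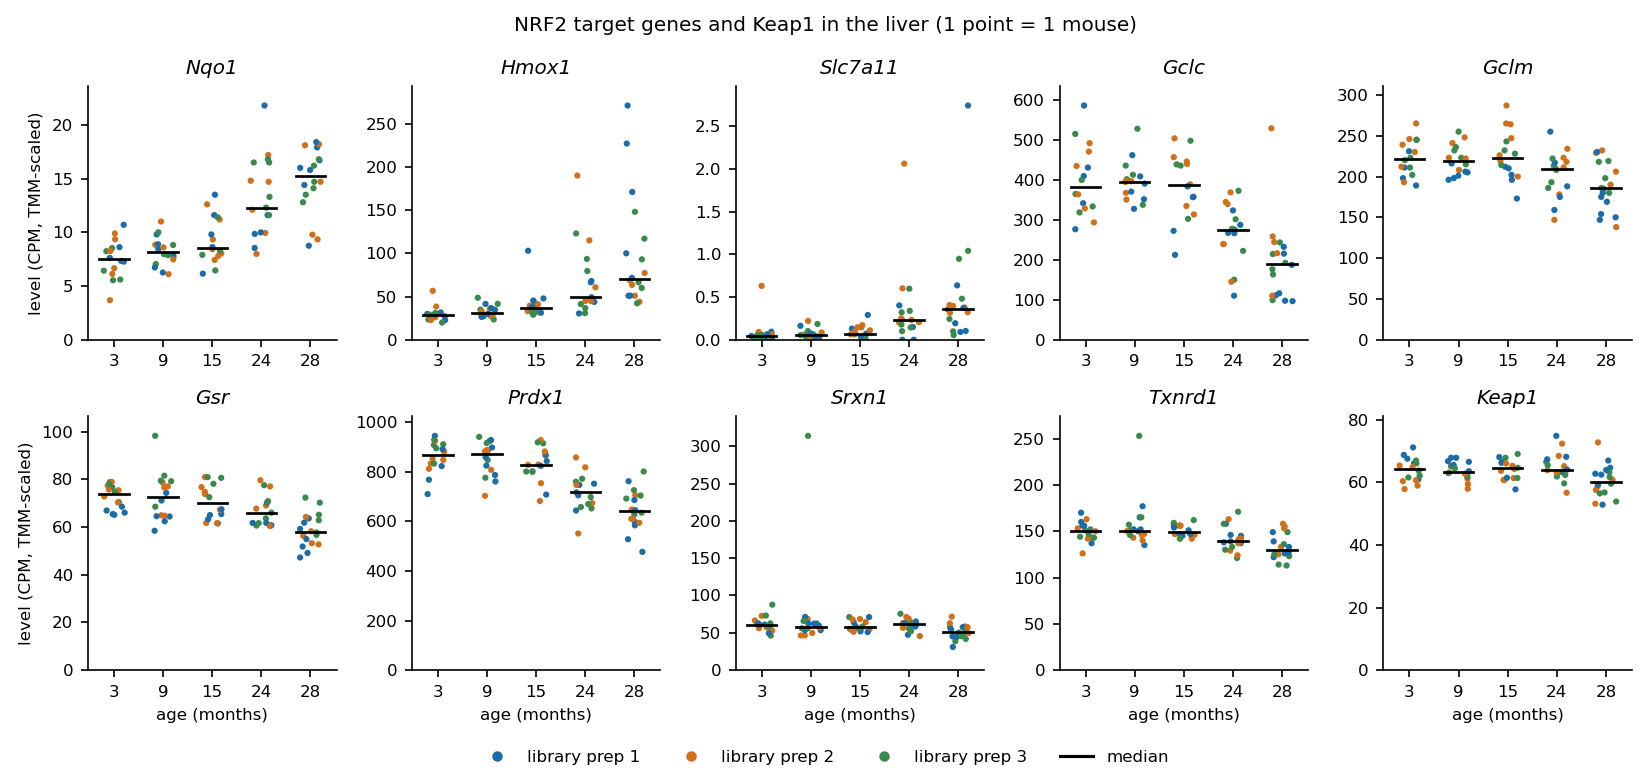
Level of each of the 10 genes in every liver library (CPM, linear scale from 0, each panel with its own) by age in months, with points coloured by prep and a line at the median of each age. Nqo1, Hmox1 and Slc7a11 lie higher at 24 and 28 months and Gclc, Prdx1 and Gsr lower, with single livers far from the rest, such as Srxn1 at 314 CPM at 9 months and Hmox1 at 271 CPM at 28 months.

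Nqo1, which reduces quinones and is a classic NRF2 target, ranged from 3.68 to 10.7 CPM in 3-month livers (median 7.48) and from 8.75 to 18.4 CPM at 28 months (median 15.3). All 18 of the 28-month livers were above the 3-month median and 15 of 18 were above the highest 3-month liver. The medians at 9, 15 and 24 months were 8.20, 8.53 and 12.3 CPM. The change from 3 to 28 months was 0.98 ± 0.12 on the log2 scale, or 1.97-fold (edgeR adjusted p = 4.7e-11), and within the preps alone it was 0.87, 0.94 and 1.10. At 24 months it was already 0.83 ± 0.12 (adjusted p = 3.2e-08), with 0.57, 0.80 and 1.08 in the preps.

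Hmox1, the inducible heme oxygenase, ranged from 19.9 to 56.6 CPM at 3 months (median 28.3) and from 42.2 to 271 CPM at 28 months (median 70.1). All 18 of the oldest livers exceeded the 3-month median, and 13 exceeded every 3-month liver. The medians between were 31.2, 36.9 and 49.2 CPM at 9, 15 and 24 months, with single livers at 103 CPM (15 months) and 190 CPM (24 months) far above their age group. The log2 change from 3 to 28 months was 1.71 ± 0.22, or 3.27-fold (edgeR adjusted p = 2.5e-10). In the preps it was 2.24, 0.90 and 1.72, so its size, though not its sign, differed between them. Without the 2 livers least like the others it was 1.54.

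Slc7a11, the cystine importer, was scarcely detected in the liver at any age but rose. The 16 livers of 3 months held 38 counts in all, of which 21 were in replicate 12, while the 18 livers of 28 months held 366 counts. Set against the total counts of each group that is a ratio of 7.14 (95% interval 5.10 to 10.3, counting error only), and without replicate 12 of 3 months it was 14.9 (9.18 to 25.9), while without 28-month replicate 4, which alone held 113 counts, it was 5.25 (3.72 to 7.59). The medians were 0.0390, 0.0579, 0.0709, 0.232 and 0.364 CPM at 3, 9, 15, 24 and 28 months, and the number of libraries at or under 3 counts was 15 of 16, 13 of 16, 11 of 16, 2 of 17 and 3 of 18. The fitted log2 change was 2.90 ± 0.50 (edgeR adjusted p = 9.1e-07), with 3.84, 1.33 and 3.92 in the preps, and as the fit of a gene near 0 counts it depends on the prior count. The gene passed the filter on low counts only through the older livers, where it was higher, and in a fit of 3 and 28 months alone the filter removed it. Whether it was tested thus depended on the filter, while in the fit without any filter on low counts it was also called.

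Of the glutathione genes Gclc, Gclm and Gsr fell. Gclc ranged from 276 to 585 CPM at 3 months (median 381) and from 96.4 to 528 CPM at 28 months (median 189). Of the 18 oldest livers, 17 were below the lowest 3-month liver, and the exception, replicate 10 at 528 CPM, stood apart from the next highest, 258 CPM. The medians at 9 and 15 months, 395 and 385 CPM, were close to that of 3 months, and the median at 24 months was 275 CPM. The log2 change from 3 to 28 months was -1.03 ± 0.14, or 0.488-fold (edgeR adjusted p = 3.2e-09), with -1.46, -0.54 and -1.10 in the preps. Its partner subunit Gclm went from 189 to 265 CPM (median 222) to 138 to 232 CPM (median 186), with 10 of 18 old livers below the lowest young one. That was -0.23 ± 0.06 on the log2 scale (adjusted p = 4.6e-04), and -0.33, -0.21 and -0.16 in the preps. Gsr, which returns oxidized glutathione to its reduced form, went from 65.1 to 78.9 CPM (median 73.8) to 47.2 to 72.3 CPM (median 57.9), all 18 below the young median and 16 below every young liver. Its log2 change was -0.30 ± 0.04 (adjusted p = 2.9e-08), and -0.28, -0.39 and -0.25 in the preps.

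Of the thioredoxin genes Prdx1 and Txnrd1 fell. Prdx1 went from 710 to 945 CPM at 3 months (median 867) to 477 to 801 CPM at 28 months (median 640), with all 18 old livers below the young median and 15 below every young liver. Its log2 change was -0.41 ± 0.05 (edgeR adjusted p = 3.6e-11) and nearly the same in each prep, at -0.45, -0.43 and -0.37. Txnrd1, the cytosolic thioredoxin reductase, went from 126 to 170 CPM (median 150) to 113 to 158 CPM (median 130), a change of -0.16 ± 0.05 (adjusted p = 0.00407) that was -0.26 and -0.22 in preps 1 and 3 but -0.01 in prep 2. Srxn1 went from 46.2 to 87.7 CPM (median 60.7) to 31.0 to 71.6 CPM (median 51.6), a log2 difference of -0.25 ± 0.13 that did not pass (adjusted p = 0.0979). Keap1, the repressor of NRF2, went from 57.9 to 71.2 CPM (median 64.3) to 52.9 to 72.8 CPM (median 60.2). Its log2 change was -0.09 ± 0.03 (adjusted p = 0.0139), with -0.13, -0.01 and -0.13 in the preps, and the call was lost under upper-quartile scaling, with the clock gene score and with only both ages in the fit. Without the 2 livers least like the others the changes were 1.00 for Nqo1, 2.8 for Slc7a11, -1.01 for Gclc, -0.23 for Gclm, -0.31 for Gsr, -0.40 for Prdx1, -0.18 for Txnrd1, -0.26 for Srxn1 and -0.10 for Keap1. The same 9 genes were called, where 61.5% of all genes were.

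The changes were called from 24 months on. None of the 10 passed at 9 against 3 months (4.69% of all genes did) or at 15 against 3 months (7.32%) by edgeR. At an unadjusted p under 0.05 there were 0 and 2 of the 10, the latter Hmox1 and Nqo1. DESeq2 called 0 in both comparisons (5.64% and 7.28% of all genes), limma voom with quality weights 0 and 1 (2.55% and 7.18%). At 24 against 3 months 7 of 10 passed, against 49.0% of all genes, with Nqo1, Hmox1 and, within the limit of the filter given above, Slc7a11 higher (background 25.0%) and Gclc, Prdx1, Gsr and Gclm lower (24.0%). Of these calls that of Gclm (-0.14, adjusted p = 0.0436) was lost under 5 alternatives over all preps, with median-ratio (RLE) and upper-quartile scaling, without the prep term, with only both ages and without the 2 livers least like the others, and that of Gsr (-0.12, adjusted p = 0.0246) under upper-quartile scaling and without the prep term. Between 15 and 24 months 6 of 10 passed, against 36.0% of all genes, 3 higher (background 21.6%) and 3 lower (14.4%). Nqo1 rose by 0.52 ± 0.12, Hmox1 by 0.78 ± 0.21 and Slc7a11 by 1.86 ± 0.50 on the log2 scale, and Gclc (-0.51 ± 0.14), Prdx1 (-0.21 ± 0.05) and Gclm (-0.16 ± 0.06) fell. Slc7a11 is again a gene that the filter kept through its older livers. Without the 2 livers least like the others, one of them of 24 months, the Hmox1 and Slc7a11 changes were 0.57 and 1.36 and still passed, and with quality weights in limma voom 0.40 and 1.22. The Gclm call was lost without those livers, under upper-quartile scaling and with only both ages in the fit. Hmox1 rose in that interval in preps 2 and 3 (1.12 and 1.08) but was at -0.04 in prep 1. Between 24 and 28 months 4 of 10 passed, against 15.3% of all genes, all of them lower (background 9.13%): Gclc (-0.45 ± 0.14), Gsr (-0.18 ± 0.04), Prdx1 (-0.15 ± 0.05) and Keap1 (-0.11 ± 0.03). With a score of clock genes, which follow the hour of the day, added to the fit, all 4 calls were lost. Gclc moved to -0.13, while Prdx1 (-0.16), Gsr (-0.15) and Keap1 (-0.09) kept nearly the same size with adjusted p of 0.122, 0.114 and 0.194, and 280 genes in all were called in place of 2385. With only both ages in the fit the calls of Gclc (-0.46), Prdx1 (-0.15) and Keap1 (-0.12) were lost at nearly the same size, and that of Prdx1 (-0.15) also without the filter on low counts. The rises of Nqo1 (0.15 ± 0.11), Hmox1 (0.47 ± 0.21) and Slc7a11 (0.68 ± 0.41) over that last interval did not pass. With all ages tested together all 10 liver genes differed, as did 71.5% of all genes, Slc7a11 again as a gene that the filter kept through the older livers.

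Other genes around NRF2 in the liver were read from lists, whose counts stand beside 61.9% of all genes called, 31.9% higher and 30.0% lower. Of 24 genes of NRF2-linked detoxification, 15 changed from 3 to 28 months, 6 higher and 9 lower, with a median of -0.11, a share near that of all genes, and among them the glutathione transferase Gstp1 fell by 2.40 ± 0.13 on the log2 scale, from a median of 1350 CPM to 242 CPM with no overlap, and the exporter Abcc4 rose by 1.59 ± 0.15, from 2.70 to 9.22 CPM. Of 18 other antioxidant enzymes 15 changed, 3 higher and 12 lower (median -0.27), the catalase gene Cat at -0.93 ± 0.09, from a median of 3540 CPM to 1690 CPM, and the extracellular dismutase gene Sod3 rising by 0.70 ± 0.11. Of 6 genes that supply NADPH, the reductant of both Gsr and Txnrd1, 4 changed and all 4 were lower (median -0.21), with the malic enzyme gene Me1 at -2.09 ± 0.23, from a median of 349 CPM to 59.8 CPM. Of 12 tested genes of glutathione metabolism 9 changed, 4 higher and 5 lower (median 0.04). Slc3a2, whose protein forms the cystine importer together with that of Slc7a11, rose by 0.31 ± 0.05, and Oplah, an enzyme that recycles glutamate from a glutathione breakdown product, fell by 0.48 ± 0.08. Of 10 genes of heme and iron handling 8 changed, 6 higher and 2 lower (median 0.20), with the heme scavenger Hpx rising by 1.21 ± 0.19 and the ferritin gene Ftl1 at -0.43 ± 0.07. Of 9 targets of ATF4, a stress factor that also acts on Slc7a11, 7 changed, 5 higher and 2 lower (median 0.53), Phgdh rising by 3.61 ± 0.55 and Atf5 at -0.41 ± 0.09. Phgdh was near the limit of 3 counts in young livers, at a median of 0.229 CPM (0.0972 to 0.869), so its fold depends on the prior count. At 28 months its median was 1.03 CPM and its highest value 14.8 CPM. Without the 2 livers least like the others the detoxification list had 7 higher and 9 lower and the antioxidant enzymes 2 and 12, and the other counts were the same.

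Of 11 genes that control NRF2, 4 changed in the liver, 2 higher and 2 lower, where 61.9% of all genes were called. Nfe2l2 itself, which encodes NRF2, was at 67.9 to 105 CPM at 3 months (median 93.0) and 59.2 to 119 CPM at 28 months (median 85.6), a log2 difference of -0.08 ± 0.07 that did not pass (edgeR adjusted p = 0.335). With all ages tested together it did pass (edgeR adjusted p = 0.0449), with means of 90.9 ± 11.8 CPM at 3 months (SD, n = 16) and 78.3 ± 11.5 CPM at 24 months (n = 17). Sqstm1, whose protein p62 takes KEAP1 away from NRF2 and which is also an NRF2 target, fell by 0.46 ± 0.05 (adjusted p = 8.1e-12). Mafk, a small MAF partner, rose by 0.38 ± 0.10.

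Markers of several other cell types moved with age in the same livers. Kupffer cell markers rose for 5 of 5 genes, from a summed level of 243 to 883 CPM at 3 months (median 312) to 397 to 3930 CPM at 28 months (median 794). Markers of recruited macrophages rose for 6 of 6, from 14.7 to 72.9 CPM (median 18.7) to 26.7 to 262 CPM (median 57.0), B and plasma cell markers for 6 of 6, from 5.97 to 24.0 CPM (median 8.56) to 14.1 to 339 CPM (median 32.9), and T cell markers for 4 of 4, from 1.42 to 14.9 CPM (median 1.87) to 4.88 to 31.9 CPM (median 9.52). Neutrophil markers rose for 3 of 3 tested, from 1.46 to 15.1 CPM (median 2.46) to 5.40 to 453 CPM (median 28.3). Stellate cell and fibroblast markers rose for 4 of 5, from 222 to 319 CPM (median 277) to 365 to 502 CPM (median 422) with no overlap, and proliferation markers for 2 of 3, from 1.42 to 49.0 CPM (median 5.85) to 1.54 to 67.8 CPM (median 12.2). Of 5 hepatocyte markers 1 changed, lower, with a summed level of 59500 to 102000 CPM (median 89400) at 3 months and 21800 to 117000 CPM (median 98100) at 28 months. Of 6 pericentral hepatocyte markers 3 were higher and 1 lower, of 5 periportal markers 2 higher and 1 lower, of 5 red blood cell markers 3 higher and 1 lower, of 5 cholangiocyte markers 2 higher and of 4 sinusoidal endothelial markers 1 higher and 1 lower. No defining marker of these types was at 0 in all livers. Hmox1 is a gene of Kupffer cells, which take up old red cells, as well as of hepatocytes. The part of these cells in the changes of Hmox1 and Slc7a11 was not tested, and in bulk tissue more cells of a type and more RNA per cell cannot be told apart.

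The 4 livers with the highest Hmox1 were compared with the others for Kupffer markers. Replicate 9 of 28 months, with Hmox1 at 271 CPM, had the highest Kupffer sum of all 83 livers, 3930 CPM, and replicate 2 of 28 months, at 227 CPM, the next, 1720 CPM. Replicate 13 of 24 months (Hmox1 190 CPM) and replicate 4 of 28 months (171 CPM) had Kupffer sums of 884 and 1060 CPM, ranks 10 and 6 of 83, where the other livers had 243 to 1320 CPM (median 434). For markers of recruited macrophages the 4 livers were at 262, 120, 172 and 132 CPM, ranks 1, 7, 2 and 4, where the others had 14.7 to 140 CPM (median 26.7). For Slc7a11, replicate 4 of 28 months (2.74 CPM) and replicate 13 of 24 months (2.06 CPM) had the highest sums of B and plasma cell markers, 339 and 622 CPM, while replicates 3 and 1 of 28 months (1.04 and 0.947 CPM) had 138 and 30.8 CPM, ranks 4 and 28, where the other livers had 5.97 to 236 CPM (median 23.1). For T cell markers the 4 livers, in the same order, were at 21.5, 45.1, 15.0 and 16.2 CPM, ranks 4, 1, 7 and 6 (median of the others 3.33), and for markers of recruited macrophages at ranks 4, 2, 6 and 5. In the youngest group, replicate 12 had the highest Hmox1 (56.6 CPM) and Slc7a11 (0.630 CPM) of its age together with a Kupffer sum of 883 CPM, and the genes most raised over the other 3-month livers were Saa2 (940 CPM, median of the others 15.6) and Lcn2 (208 CPM, 4.19), genes of the acute phase.

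A single liver of 9 months, replicate 13, was high in part of the set. Its Srxn1 was 314 CPM, where the other 15 livers of its age lay between 46.4 and 71.3 CPM, 5.53 times their median. Txnrd1 at 253 CPM (others 135 to 177), Gclc at 527 CPM (327 to 461), Gsr at 98.2 CPM (58.4 to 81.5) and Hmox1 at 48.6 CPM (23.5 to 41.6) were also the highest of their age. Nqo1 at 7.04 CPM and Gclm at 215 CPM were not, and both were below the median of the others. The genes most raised in this liver were the metallothioneins Mt2 (265 CPM, median of the others 1.20) and Mt1 (198 CPM, 3.56). In the brain of the same mouse Hmox1 (5.78 CPM) and Srxn1 (96.6 CPM) were again the highest of their age, but within reach of the next values, 5.54 and 93.4 CPM.

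In the brain the changes were small. From 3 to 28 months Nqo1, Hmox1 and Gsr rose, Slc7a11 fell, and Srxn1, Txnrd1, Gclc, Gclm, Prdx1 and Keap1 did not pass the test. That is 4 of 10, against 28.3% of all 18711 genes tested, with 3 higher (background 16.3%) and 1 lower (12.0%). The median log2 difference of the 10 was 0.07, beside 0.01 for all genes, and the ranges of both ages overlapped for all 10, as they did for all but 0.246% of the genes tested.

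**Figure D2:**
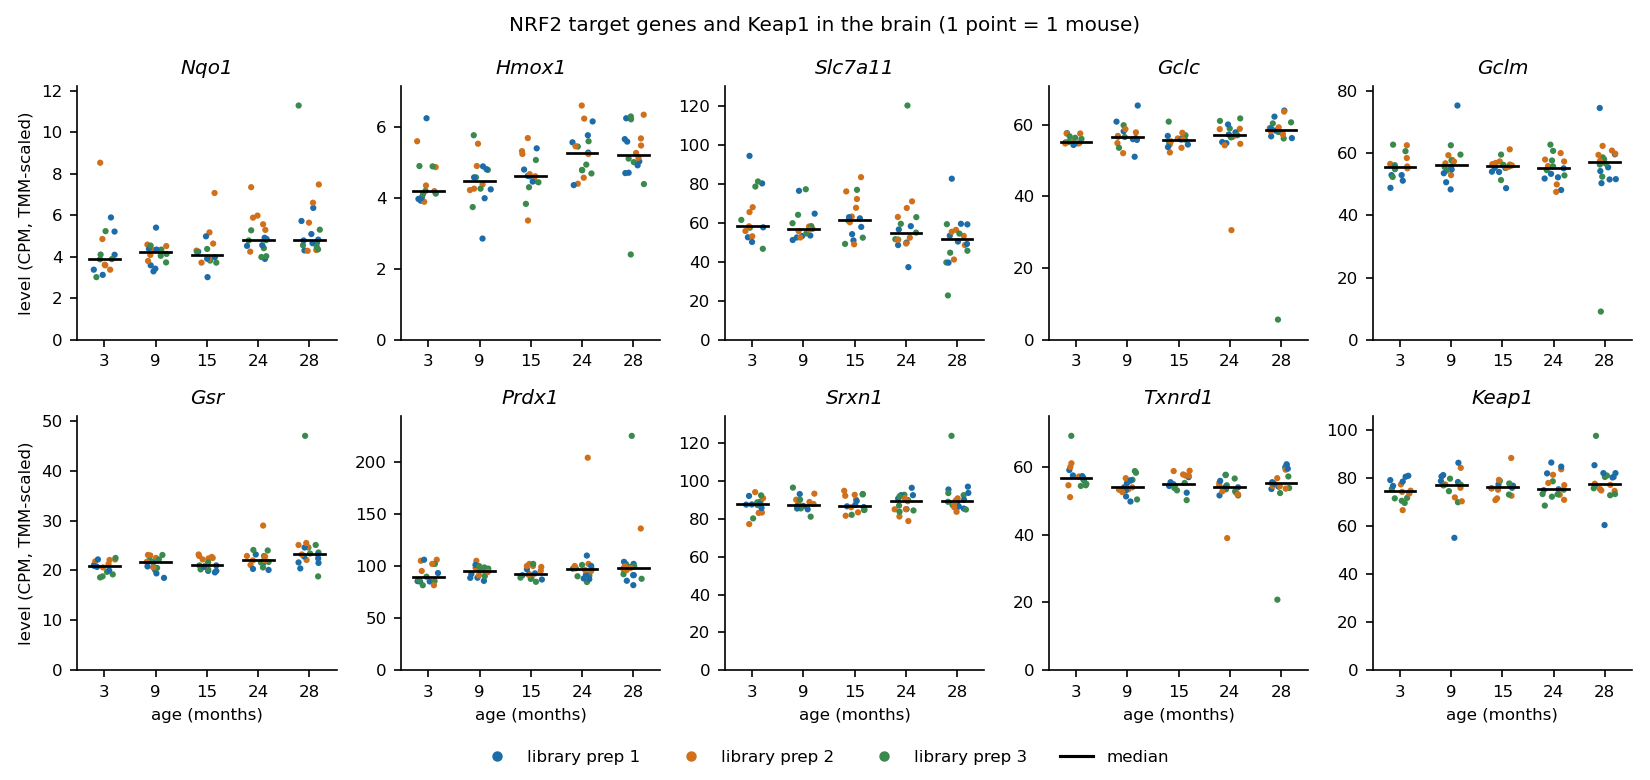
Level of each of the 10 genes in every brain library (CPM, linear scale from 0, each panel with its own) by age in months, with points coloured by prep and a line at the median of each age. Most genes stay level, and 28 months replicate 15 lies far below the rest for Gclc (5.63 CPM) and Gclm (9.07 CPM) and above it for Prdx1 (225 CPM) and Gsr (47.0 CPM).

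Nqo1 in the brain ranged from 3.02 to 8.54 CPM at 3 months (median 3.89) and from 4.29 to 11.3 CPM at 28 months (median 4.81), all 18 old brains lying above the young median but only 1 above the highest young brain. The log2 change was 0.34 ± 0.11, or 1.26-fold (edgeR adjusted p = 0.0125), with 0.23, 0.25 and 0.53 in the preps, none of which passed alone. With only both ages in the fit the change was again 0.34, but the call was lost (edgeR adjusted p = 0.0956). The brains with most Nqo1 were also rich in choroid plexus transcripts, the tissue that makes cerebrospinal fluid. At 11.3 CPM, 28 months replicate 12 had 5200 CPM over 4 choroid plexus markers, and at 8.54 CPM, 3 months replicate 5 had 6290 CPM, against a median of 103 CPM in the brains outside the 4 highest for Nqo1, of which 1 reached 4600 CPM (35.5 to 4600), more than the 4290 and 2940 CPM of the other 2 of the 4. None of those 4 markers passed the test with age, and their sum had a median of 176 CPM at 3 months (44.1 to 6290) and 106 CPM at 28 months (43.2 to 5200). Leaving out either of these libraries left the change called, at 0.28 and 0.41 by limma voom.

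Hmox1 in the brain ranged from 3.90 to 6.26 CPM at 3 months (median 4.20) and from 2.41 to 6.36 CPM at 28 months (median 5.21), with 17 of 18 old brains above the young median. The log2 change was 0.23 ± 0.08, or 1.17-fold (edgeR adjusted p = 0.0159), with 0.25, 0.28 and 0.17 in the preps. With only both ages in the fit it was again 0.23, but the call was lost (adjusted p = 0.0612). At 24 months it was also 0.23 ± 0.08 (adjusted p = 0.0367), with 0.29, 0.24 and 0.18 in the preps, and was then the only 1 of the 10 called, against 10.1% of all genes (6.19% higher), a call lost without the filter on low counts, where it was 0.22 (adjusted p = 0.101). Gsr ranged from 18.6 to 22.5 CPM (median 20.9) and from 18.8 to 47.0 CPM (median 23.3), with 12 of 18 old brains above every young one. The log2 change of Gsr was 0.23 ± 0.05, or 1.17-fold (adjusted p = 6.7e-04), with 0.09, 0.16 and 0.44 in the preps and 0.16 without the 2 libraries that stood apart. With the clock gene score described among the brain results, it was 0.08 and the call was lost (adjusted p = 0.206). With quality weights in limma voom it was 0.15.

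Slc7a11, which astrocytes use to import cystine in exchange for glutamate, ranged from 46.6 to 94.2 CPM in 3-month brains (median 58.1) and from 22.7 to 82.5 CPM at 28 months (median 51.7). Of the 18 old brains 14 were below the young median and 6 below every young brain. The log2 change was -0.33 ± 0.10, or 0.796-fold (edgeR adjusted p = 0.0127), with -0.25, -0.23 and -0.54 in the preps and -0.28 without the 2 libraries that stood apart. With the clock gene score the call was lost (-0.23, adjusted p = 0.127). Of 5 astrocyte markers 2 rose and 2 fell with age, with a summed level of 1310 to 1560 CPM (median 1430) at 3 months and 845 to 2230 CPM (median 1590) at 28 months. Of 6 microglia markers 5 rose, with a sum of 257 to 315 CPM (median 271) and then 261 to 588 CPM (median 330). Of 5 red blood cell markers 3 rose, with a sum of 29.9 to 234 CPM (median 75.3) and then 34.4 to 725 CPM (median 129), and of 3 tested neutrophil markers all 3 rose, from a median of 0.673 CPM to 5.57 CPM. Markers of other cell types were lower. Of 4 meningeal fibroblast markers 2 fell (median log2 difference of the 4 -0.35), with a sum of 27.1 to 111 CPM (median 85.5) and then 31.6 to 107 CPM (median 67.9), as did 3 of 3 proliferation markers, from a median of 3.13 CPM to 1.07 CPM. Both tested pituitary markers were called lower while the medians of their sum were 1.12 and 1.14 CPM, with 2 young brains at 643 and 191 CPM where the highest of 28 months was 9.99 CPM. The part of these cells in the brain changes was not tested.

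The 2 brain libraries that stood apart bore on the other genes. In 28 months replicate 15, the brain library of fewest counts, Gclc was 5.63 CPM where the other 17 lay between 56.2 and 64.0, Gclm 9.07 CPM (others 50.4 to 74.6), Txnrd1 20.8 CPM (52.3 to 60.8) and Hmox1 2.41 CPM (4.40 to 6.36), while Prdx1 was 225 CPM (81.6 to 136), Gsr 47.0 CPM (18.8 to 25.5) and Srxn1 124 CPM (83.8 to 97.1). In 24 months replicate 13 Gclc was 30.6 CPM (others 54.3 to 61.8) and Prdx1 204 CPM (84.6 to 110). In replicate 15 the summed level of 5 neuron markers was 3110 CPM, below the 4790 to 6670 CPM of all other brains, and the noncoding RNA Bc1 was 81800 CPM, where the median of the others of its age was 934. With both libraries left out, Gclc was higher at 28 months by 0.09 ± 0.02 on the log2 scale (edgeR adjusted p = 0.00139), where with them it was 0.01 ± 0.10 (adjusted p = 0.930). Of the 18 old brains 13 were above the highest young brain for Gclc, whose young range was narrow, 54.4 to 57.7 CPM, against a median of 58.6 CPM at 28 months. With both left out, 5 of 10 were called at 28 against 3 months, where 34.1% of all genes were in the same fit, and 3 of 10 at 24 against 3 months, where 17.1% were.

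For the remaining brain genes the log2 differences at 28 months were 0.07 ± 0.03 for Srxn1, 0.18 ± 0.08 for Prdx1, 0.06 ± 0.04 for Keap1, -0.08 ± 0.06 for Txnrd1 and -0.01 ± 0.08 for Gclm, with edgeR adjusted p of 0.107, 0.0764, 0.220, 0.291 and 0.916. Without the 2 libraries that stood apart they were 0.04, 0.08, 0.04, -0.03 and 0.05, and by limma voom leaving out 28 months replicate 15 alone moved Srxn1 to 0.04, Prdx1 to 0.08, Keap1 to 0.04 and Txnrd1 to -0.03. Nqo1 and Hmox1 were at 0.35 and 0.27 without the 2 libraries and stayed called. Their medians at 3 and 28 months were 87.7 and 89.4 CPM for Srxn1, 89.7 and 97.9 CPM for Prdx1, 74.6 and 77.2 CPM for Keap1, 56.8 and 55.1 CPM for Txnrd1 and 55.5 and 57.2 CPM for Gclm. None of the 10 was called in the brain at 9 against 3 months, 15 against 3 months, 24 against 15 months or 28 against 24 months, where 0.315%, 0.871%, 0.732% and 1.09% of all genes were. By edgeR 0, 0, 1 and 2 of them had an unadjusted p under 0.05. Neither DESeq2 nor limma voom with quality weights called any, where they called 0.676% to 2.33% and 2.62% to 5.24% of all genes. With all ages tested together Gsr, Hmox1 and Nqo1 differed (adjusted p = 0.00262, 0.00893 and 0.00570), 3 of 10 against 20.6% of all genes.

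Clock genes follow the hour of the day. The score of evening minus morning clock genes had a median of -0.29 at 3 months (-1.09 to 0.24) and 0.86 at 28 months (-0.85 to 4.89) in the brain, and of -1.12 (-1.84 to 1.68) and 1.52 (-1.52 to 5.07) in the liver, with ranges that overlapped, and its difference between ages was not tested. With that score as a covariate the brain changes of Gsr (0.08, edgeR adjusted p = 0.206) and Slc7a11 (-0.23, adjusted p = 0.127) no longer passed, while Gclc (0.26, adjusted p = 0.0181) and Gclm (0.20, adjusted p = 0.0468) did. In the liver at 28 against 3 months the call of Keap1 was lost with the score, and Gclc moved from -1.03 to -0.66 (adjusted p = 4.6e-04) and Srxn1 from -0.25 to -0.09 (adjusted p = 0.692).

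Among the other genes of the pathway in the brain, 11 of 19 tested genes of NRF2-linked detoxification changed from 3 to 28 months and all 11 were higher (median 0.29), beside 28.3% of all brain genes called, 16.3% higher and 12.0% lower, the shares to read all of these counts against. Among them was Aox1, an aldehyde oxidase, higher by 0.64 ± 0.09. Of 18 other antioxidant enzymes 9 changed, 8 higher and 1 lower (median 0.22), or 6 and 2 without the libraries that stood apart. Txnrd3, a thioredoxin reductase, rose by 0.29 ± 0.06 and Cat fell by 0.12 ± 0.03. Of 10 genes of heme and iron handling 5 rose and none fell (median 0.29), with Hp, the haptoglobin gene, higher by 2.16 ± 0.32, from a median of 0.113 CPM with 4 of 15 libraries at or under 3 counts to 0.539 CPM, a low gene that passed the filter through the older brains and whose fold depends on the prior count. Of 13 tested genes of glutathione metabolism 5 changed, 3 higher and 2 lower (median 0.10), Gpx3 rising by 0.50 ± 0.14 and Cth, which makes cysteine, at -0.45 ± 0.08. The Gpx3 change was 0.35, 0.18 and 0.93 in the preps, with a brain of 28 months at 37.8 CPM where the median of that age was 8.23 CPM. In the NADPH list 1 of 6 changed, Tkt of the pentose phosphate pathway, higher by 0.25 ± 0.08, and in the ATF4 list 1 of 9, Psat1 of serine synthesis, higher by 0.20 ± 0.05. The Tkt change was 0.11, 0.03 and 0.57 in the preps, with a brain of 28 months at 394 CPM where the median of that age was 132 CPM. With all ages tested together Tkt did not pass (edgeR adjusted p = 0.0724). Of the 11 control genes 4 changed, 3 higher and 1 lower, the small MAF gene Maff by 0.81 ± 0.14 and Btrc, of another ubiquitin ligase that acts on NRF2, by -0.11 ± 0.04. Nfe2l2 was at a median of 16.8 CPM and 17.9 CPM, a log2 difference of 0.04 ± 0.08 that did not pass (edgeR adjusted p = 0.766). Without the 2 libraries that stood apart the detoxification list had 12 higher, heme and iron handling 6, the NADPH list 2, glutathione metabolism 2 higher and 2 lower and the control genes 3 higher and 2 lower.

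The change with age differed between the tissues for 6 of the 10 genes, against 49.2% of all genes, in a fit of both tissues together. In that fit the brain's log2 change between 3 and 28 months, minus the liver's, was -3.18 ± 0.44 for Slc7a11, which was higher in old livers, within the limit of the filter on low counts given above, and fell in the brain, and 0.48 ± 0.07 for Gsr, which fell in the liver and rose in the brain. For Hmox1 (-1.50 ± 0.23) and Nqo1 (-0.68 ± 0.16) the rise was the larger in the liver. Gclc (1.01 ± 0.18) and Prdx1 (0.55 ± 0.09) fell in the liver and did not pass the test in the brain. The edgeR adjusted p ranged from 4.6e-10 for Gsr to 1.8e-04 for Nqo1. Srxn1 (0.28 ± 0.14, adjusted p = 0.0834), Gclm (0.18 ± 0.11, 0.157), Txnrd1 (0.05 ± 0.08, 0.625) and Keap1 (0.11 ± 0.05, 0.0597) did not pass. With the mouse as a block, which pairs the brain and liver of an animal, Srxn1 (0.30, adjusted p = 0.0301) and Keap1 (0.12, adjusted p = 0.0478) passed as well.

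**Figure D3:**
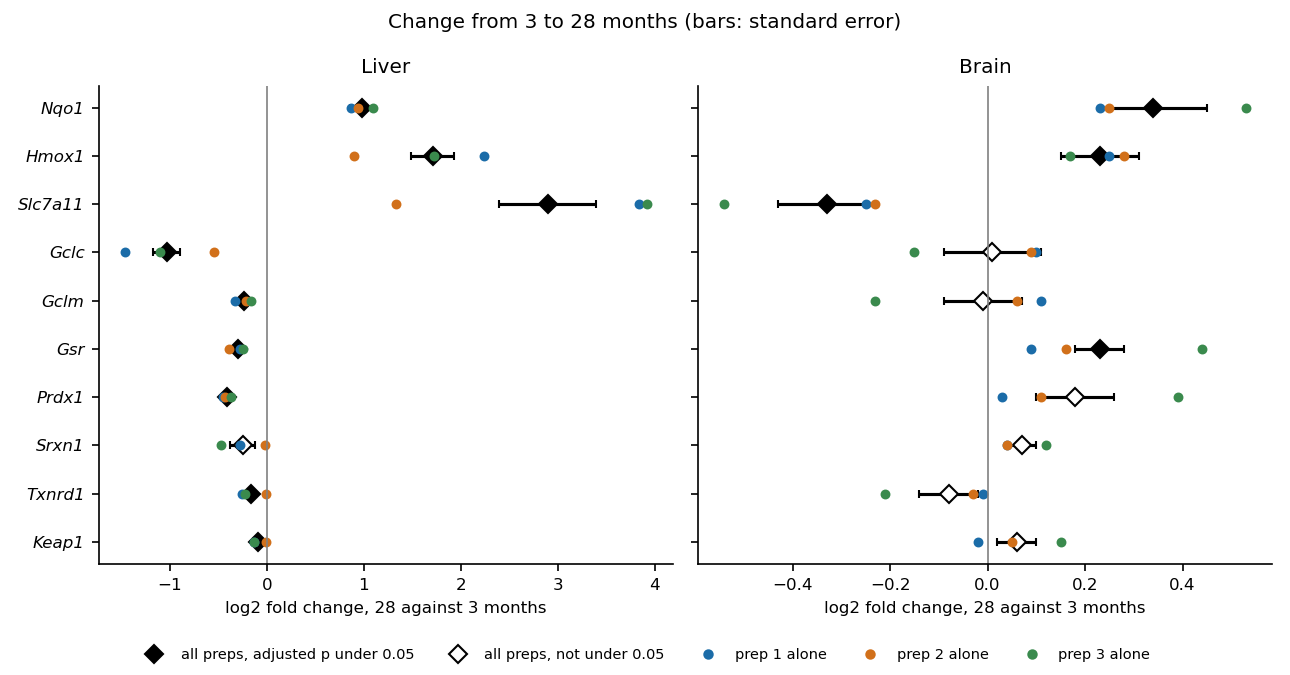
Log2 change from 3 to 28 months of each gene with its standard error, in the liver (left) and the brain (right), on different horizontal scales. Black diamonds passed the test and white ones did not, and coloured dots give each prep alone. In the liver Slc7a11, Hmox1 and Nqo1 lie right of 0 and Gclc farthest left, and in the brain the changes lie within -0.33 and 0.34.

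The spread between mice was compared as well. The SD of log2 CPM of Hmox1 in the liver was 0.37 at 3 months and 0.77 at 28 months, and that of Gsr 0.05 and 0.15. After prep means were taken out, the mean absolute deviation from the median of the age was compared. It was larger at 28 months by 0.36 ± 0.14 for Hmox1 (limma adjusted p = 0.161) and by 0.08 ± 0.03 for Gsr (adjusted p = 0.0957), and neither passed. By limma 0 of the 10 passed in either tissue, against 0.603% of all genes in the liver and 0% in the brain, and at an unadjusted p under 0.05 there were 2 in the liver, these same genes, and 0 in the brain.

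Pairs of the 10 genes were correlated across libraries after the means of each age and prep were taken out, 45 pairs in each tissue and 90 in all, with permutation tests of 100000 draws and adjustment over the 90. In the liver 8 pairs passed, 6 positive and 2 negative, all with the same sign in every prep. Hmox1 correlated with Slc7a11 (Pearson r = 0.58, Spearman rho = 0.49, n = 83, permutation p = 8e-05, adjusted 0.0012), and r was 0.55 without the 2 livers farthest from the median of Hmox1 and 0.51, 0.58 and 0.59 in the preps. Slc7a11 was at or under 3 counts in 15, 13 and 11 of the 16 livers of 3, 9 and 15 months. Its values there depend on depth and the prior count, and the filter kept it only through the older livers. Hmox1 ran against Gclm (r = -0.46, rho = -0.36, permutation p = 0.00017, adjusted 0.00191, -0.35 without the 2 farthest) and Prdx1 (r = -0.45, rho = -0.36, permutation p = 0.00015, adjusted 0.00191, -0.30 without them). Srxn1 went with Gsr (r = 0.51, rho = 0.45, permutation p = 1e-05, the smallest that these draws can give, adjusted 9e-04, 0.38 without the 2 farthest), and Prdx1 with Gsr (r = 0.48, rho = 0.49, permutation p = 8e-05, adjusted 0.0012, 0.50). The other 3 were Srxn1 with Keap1 (r = 0.30), Txnrd1 with Keap1 (0.34) and Gclm with Prdx1 (0.38). Among pairs of 2000 genes of the liver 90% of r lay between -0.41 and 0.44, a span that holds 3 of the 8 values of r, and 6 of the 8 without the 2 farthest livers. Without the 2 livers least like the others, an alternative chosen after seeing the data, 6 of the 8 passed, and the pairs of Prdx1 with Hmox1 (-0.30) and with Gclm (0.26) did not. All points of a correlation share the library's depth and cell makeup.

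In the brain 9 pairs passed, 3 positive and 6 negative, of which 6 also passed by Spearman's rho and 6 had the same sign in every prep. Gclc and Gclm, the subunits of 1 enzyme, had r = 0.94 (rho = 0.68, n = 82, permutation p = 8e-05, adjusted 0.0012), and 0.45 without the 2 libraries farthest from the median of Gclc, with 0.61, 0.57 and 0.99 in the preps. Gclm and Keap1, both with overlapping gene models, had r = -0.58 (rho = -0.49, permutation p = 3e-05, adjusted 9e-04), -0.62 without the 2 farthest. Txnrd1 and Prdx1 had r = -0.77 and -0.21 without them (rho = -0.37, permutation p = 0.00066, adjusted 0.00594), Gclc and Prdx1 -0.78 and -0.17 (rho = -0.40, permutation p = 0.0017, adjusted 0.0118), and Prdx1 and Gsr 0.69 and 0.13 (rho = 0.32, permutation p = 0.00584, adjusted 0.0309). Prdx1 and Gsr did not pass by rho (adjusted 0.0706). Without the 2 brain libraries that stood apart 5 pairs passed, 3 of them among the 9: Gclc with Gclm (0.45), Gclc with Keap1 (-0.49) and Gclm with Keap1 (-0.69). The other 2 were Hmox1 with Slc7a11 (-0.40), at -0.06 with all libraries, and Hmox1 with Txnrd1 (0.30). The span of 90% of gene pairs in the brain was -0.66 to 0.69 with all libraries and -0.39 to 0.41 without those 2. The first span holds 5 of the 9 values of r, and all 9 without the 2 farthest libraries, though it was taken with all libraries. The 3 pairs that passed both ways lay outside the second span. Between the brain and the liver of 82 mice 0 of 10 genes correlated after adjustment and 2, Hmox1 and Gsr, had an unadjusted permutation p under 0.05, the highest r being that of Hmox1 (r = 0.28, rho = 0.24, permutation p = 0.00628, adjusted 0.0628, 0.20 without the 2 farthest, and 0.02, 0.50 and 0.46 in the preps).

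**Figure D4:**
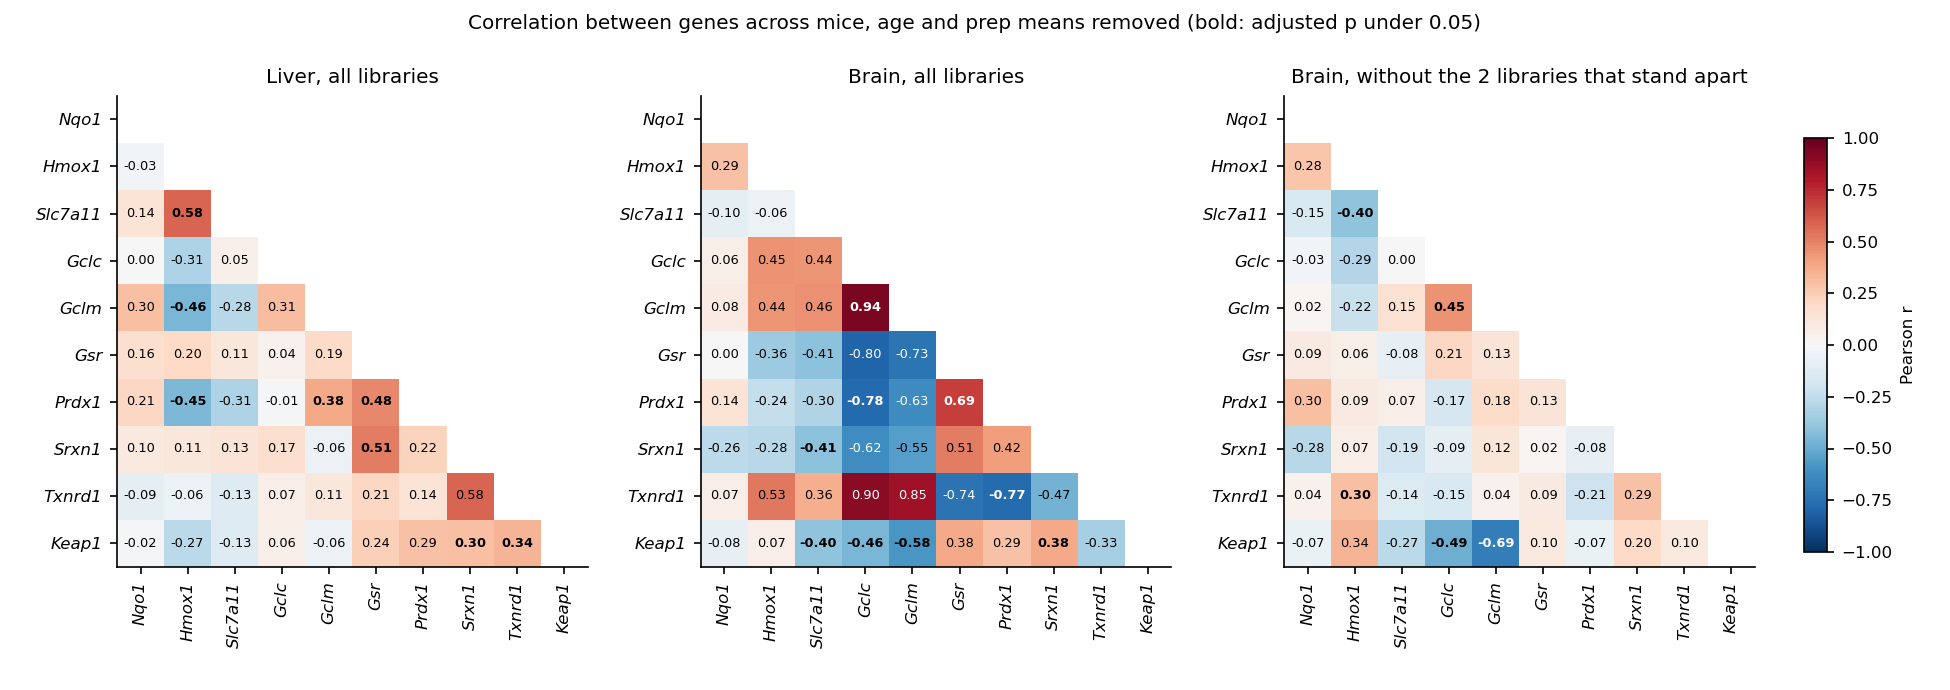
Pearson r between each pair of the 10 genes across libraries, after taking out the means of age and prep, in the liver, in the brain, and in the brain without the 2 libraries that stood apart, on a colour scale from -1 to 1. The pair Gclc and Gclm is at 0.94 in the brain and at 0.45 in the last panel, where Gclc and Prdx1 go from -0.78 to -0.17.

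For each gene called with age, the 2 genes most like it across the libraries of that tissue were named, by Pearson r after the means of age and prep were taken out. For Hmox1 in the liver they were Spic and Epb41l3 (both r = 0.90, n = 83), with medians of 2.03 and 2.78 CPM at 3 months and 6.56 and 6.75 CPM at 28 months. Spic encodes a transcription factor known from macrophages that recycle red cells. For Slc7a11 in the liver they were Itgb7 (0.78), an integrin of lymphocytes, and Gimap3 (0.77), with Slc7a11 at or under 3 counts in most livers of 3, 9 and 15 months. For Gclc they were Aox1 (0.86) and Slc22a30 (0.78), which fell with it, Aox1 from a median of 107 to 53.4 CPM. For Nqo1 they were Mgst3 (0.65) and Slc22a27 (0.57), and for Prdx1 Psma4 (0.85), of the proteasome, and Vdac3 (0.84), of the mitochondrial outer membrane. Txnrd1, Gclm, Gsr and Keap1 had no gene above 0.68 in the liver. In the brain (n = 82) Nqo1 was most like 1500015O10Rik (0.83) and Enpp2 (0.81), Slc7a11 like Ranbp3l (0.80) and Slc22a8 (0.72), Gsr like Ascc1 (0.86) and Borcs7 (0.85), and Hmox1 like Auh (0.70) and Rnf10 (0.67). Without the 2 brain libraries that stood apart these r were 0.44 and 0.39 for Gsr, 0.52 and 0.51 for Hmox1, 0.84 and 0.83 for Nqo1 and 0.76 and 0.64 for Slc7a11.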

How the data were processed

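Per the submitters' processing notes, reads were handled with cutadapt 2.8, HISAT2 2.1.0, SAMtools 1.9 and featureCounts of Subread 2.0.1 on GRCm38.p6 (also written mm10), with no role or order given. The authors deposited whole-number read counts per Ensembl gene, not normalized, in a table per tissue. The annotation release, the strand setting and the handling of reads with several matches are not given in the sources used here. Symbols were found for 55144 of 55471 identifiers, and no column of values was left unused.

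Counts were filtered with filterByExpr by age, scaled by TMM and fitted in edgeR 4.0.16 (R 4.3.3) with age and prep, all libraries of a tissue sharing 1 estimate of the spread. Two-sided quasi-likelihood tests were adjusted by Benjamini-Hochberg over all genes. A fit of both tissues tested the difference between them. DESeq2 1.42.0 and limma 3.58.1 (voom) were alternatives, and the fits were tested on simulated counts. Log2 CPM used a prior count of 2, and for correlations the means of age and prep were taken out again whenever libraries were left out. Beyond the 10 genes, the text names in each tissue the called gene of smallest p in each direction from each pathway list, Nfe2l2, and the 2 genes most like each called gene. The genes and lists were chosen with earlier results of these data known, and Chac1 stands in 2 lists.

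No 2 libraries differed by as little as counting noise. Over pairs the lowest mean squared residual was 5.36 for brains and 8.41 for livers, where counting noise alone gives about 1. The limit of 3 counts was 0.0417 to 0.345 CPM in the brain and 0.0554 to 0.527 CPM in the liver, and intervals and limits cover counting error only. Brain and liver of a mouse pair by animal, per the labels.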

Additional observations from a re-analysis of the deposited data

Results flagged for a closer look

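For 6 of the 10 genes, against 49.2% of all genes, the change from 3 to 28 months differed between the tissues by the test of the difference itself (edgeR, both tissues in 1 fit). Brain minus liver, on the log2 scale, it was -3.18 for Slc7a11, -1.50 for Hmox1, -0.68 for Nqo1, 0.48 for Gsr, 0.55 for Prdx1 and 1.01 for Gclc. In the preps alone the difference was -4.18, -1.58 and -4.62 for Slc7a11, -2.0, -0.65 and -1.61 for Hmox1, -0.65, -0.71 and -0.63 for Nqo1, 0.36, 0.53 and 0.61 for Gsr, 0.48, 0.51 and 0.69 for Prdx1 and 1.55, 0.61 and 0.89 for Gclc, with the same sign in all 3 preps for each of the 6. Slc7a11 in the liver rests on 38 counts at 3 months and passed the filter on low counts only through the older livers, where it was higher. Gclc in the brain at 28 months includes replicate 15, which stood apart.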

How the results depend on the processing

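Over all alternatives 1169 values of single genes kept their direction and side of the threshold, 109 fell short of it, 23 newly passed and 20 turned sign, and of the counts of genes called 235 stayed within 1.5 times and 32 did not. In the liver at 28 against 3 months Nqo1, Hmox1, Prdx1 and Gsr passed under all 13 alternatives, with log2 changes of 0.82 to 1.10, 0.90 to 2.24, -0.45 to -0.36 and -0.39 to -0.24. Slc7a11 had 12, since with only both ages in the fit the filter removed it. Within a prep (4 to 7 libraries of an age) fewer genes passed. In the brain 0 were called in each of preps 1, 2 and 3 at 24 against 3 months (1 with all; 1.19%, 0.597% and 0.486% of all genes), at 28 against 3 months (4; 10.6%, 1.96% and 6.36%) and over all ages (3; 4.84%, 1.42% and 1.99%). In the liver preps 1, 2 and 3 called 0, 3 and 4 at 24 against 3 months (7), where 5.83%, 15.5% and 33.4% of all genes were called, prep 2 called 4 at 28 against 3 months (9; 15.6%) and 5 over all ages (10; 28.4%). Preps 1, 2 and 3 called 0, 2 and 2 at 24 against 15 months (6), beside 0.0193%, 16.7% and 8.09%, and 2, 0 and 0 at 28 against 24 months (4), beside 16.2%, 0% and 1.24%. For the difference between tissues prep 2 called 1 (6), beside 6.35%.

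With limma voom with quality weights the counts were 3 in the brain at 24 against 3 months (25.9% of all genes) and 5 over all ages (42.7%), in the liver 1 at 15 against 3 months (7.18%) and 7 at 28 against 24 months (28.9%), and 10 for the difference between tissues (48.9%). Without a filter on low counts 0 were called in the brain at 24 against 3 months (3.89%). Without the 2 libraries least like the others, an alternative chosen after seeing the data, 3 were called (17.1%), and 11 of the 90 pairs of genes passed in place of 17. With only both ages in the fit 2 were called in the brain at 28 against 3 months (17.0%) and 1 in the liver at 28 against 24 months (7.57%), where the clock gene score left 0 (1.80%).

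The signs that turned were mostly of brain values at 28 against 3 months that passed no test with all libraries. With the clock gene score Srxn1 was -0.02, Txnrd1 0.04, Prdx1 -0.04, Keap1 -0.04 and Gclm 0.20, of which Gclm then passed. Gclc was -0.15 in prep 3, -0.04 by voom and, from there, 0.09 without 28 months replicate 15. Gclm was 0.01 under upper-quartile scaling, 0.05 with quality weights, 0.11 and 0.06 in preps 1 and 2, 0.05 without the 2 libraries least like the others, and 0.05 by voom without 28 months replicate 15. Keap1 was -0.02 in prep 1. In the liver Hmox1 was -0.04 in prep 1 at 24 against 15 months. For the difference between tissues Txnrd1 was -0.04 in prep 2 and -0.04 in prep 3, and Gclm -0.13 in prep 3. The cause was not tested. Leaving out each library of 3 or 28 months in turn, by voom, Gclc in the brain lay between -0.06 and 0.09 and Gclm between -0.07 and 0.05, and 4 to 4 genes were called in the brain and 9 to 10 in the liver, where voom with all libraries also called Srxn1 (-0.27) and 14 of 34 omissions lost it. By voom with all libraries 26.8% of all genes were called in the brain and 61.0% in the liver.

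The same mouse number at 3 and 28 months names different animals, and its libraries did not deviate together (median r 0.05 in the brain, 0.01 in the liver). With the number as a replicate block Gclc in the brain was -0.02, and Prdx1 in the brain and Srxn1 in the liver newly passed. Upper-quartile scaling shifted the brain calls of all genes at 28 against 3 months from 3054 higher and 2237 lower to 3742 and 1710. All-gene counts at that comparison were 5291 in the brain, 3059 with only both ages and 1987, 368 and 1205 in the preps, and 9639 in the liver, 6198 in prep 1 and 2457 in prep 2. With quality weights or without the 2 libraries, the brain count at 24 against 3 months went from 1882 to 4844 or 3193. Depth limits Slc7a11 in the liver, where most young livers lie at or under 3 counts.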
